A study of Mus musculus with 6 samples.

Results

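Complement components, regulators and receptors were examined as 38 listed genes in mouse prostate epithelial cancer cells that carried a PIM1 lentivirus (PIM1 cells) or an empty-vector lentivirus (EV cells). A gene was taken when the array held a probe set annotated to its symbol and to no other, and the brightest such probe set stood for the gene. Of the 38 genes 34 were measured in this way, among 22180 genes tested in all: 21 components, 9 regulators and 4 receptors. C3, Cfd and Masp2 had no such probe set and were not analysed here. C5 is annotated under its mouse symbol Hc and is given with the other genes of the pathway.

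The cells came from Rb1F/F:Trp53F/F:PB-Cre4 mice, in which a Cre driven by a probasin promoter deletes both floxed genes in prostate epithelium, so both groups carry the same floxed alleles and Cre, and the labels set them apart by the virus. Each group had 3 whole-transcript Affymetrix arrays, and the culture medium held charcoal-stripped serum, insulin, transferrin, selenium, pituitary extract, epidermal growth factor and cholera toxin. The labels give neither the age nor the number of the mice, nor the species of the PIM1 insert, and they name no separate cultures or transductions, so the p-values speak for the spread of these 6 arrays alone, and that spread may be technical. Values are log2 signals, differences are PIM1 minus EV, and a gene was called at an adjusted p under 0.05 (limma, Benjamini-Hochberg adjustment over all genes tested).

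Complement is a cascade of plasma and cell-surface proteins that tags targets for uptake and punches pores into membranes. Recognition molecules (C1q, collectins) switch on serine proteases (C1r, C1s, MASPs), which assemble the convertases that cleave C3 and C5, and the terminal proteins then form the membrane attack complex. Inhibitors in the fluid phase and on the membrane restrain each step, and small cleavage fragments act through G protein-coupled receptors. The liver makes most of the plasma proteins, and epithelial cells, fibroblasts and macrophages make many of them locally, often in response to inflammatory cytokines.

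The changes were spread unevenly over the cascade. Of the 6 measured genes of the initiating proteases 5 rose in PIM1 cells. Genes of 2 convertase proteins and of 3 soluble regulators rose as well, as did Colec12 and Cd59b. The largest rises were those of Cfb (35.4-fold), C4b (17.3-fold) and Clu (9.18-fold). No gene of the terminal pathway was called, and the 6 measured lay below the median of the genes tested on every array. C3ar1, Colec11 and Cd59a fell. Of the 34 measured genes 15 were called, where 27.0% of all genes tested were. Of the 34 genes 12 (35.3%) rose, against 16.1% of all genes tested, and 3 (8.82%) fell, against 10.9%. Of 24 further measured genes of the pathway, given below, 1 (4.17%) rose and 0 fell, so these shares depend on which genes are listed. Both lists were chosen with earlier results of these data known. Among components 8 rose and 1 fell, among regulators 4 rose and 1 fell, and among receptors 0 rose and 1 fell. The rise reached at least 2-fold for 11 of the 34 genes, against 4.55% of all genes, and the fall for 1, C3ar1, against 1.70%. The groups did not overlap for 15 genes that were higher in PIM1 and 4 that were lower, against 22.3% and 20.9% of all genes (43.2% together). The median difference was 0.17 over the 34 genes and -0.05 over all genes tested. Centring each array on all its probe sets shifted every difference, members included, upward by the same amount. The median over all genes was then 0.05. The plot of signal by array shows each gene in the order of the cascade.

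**Figure D1:**
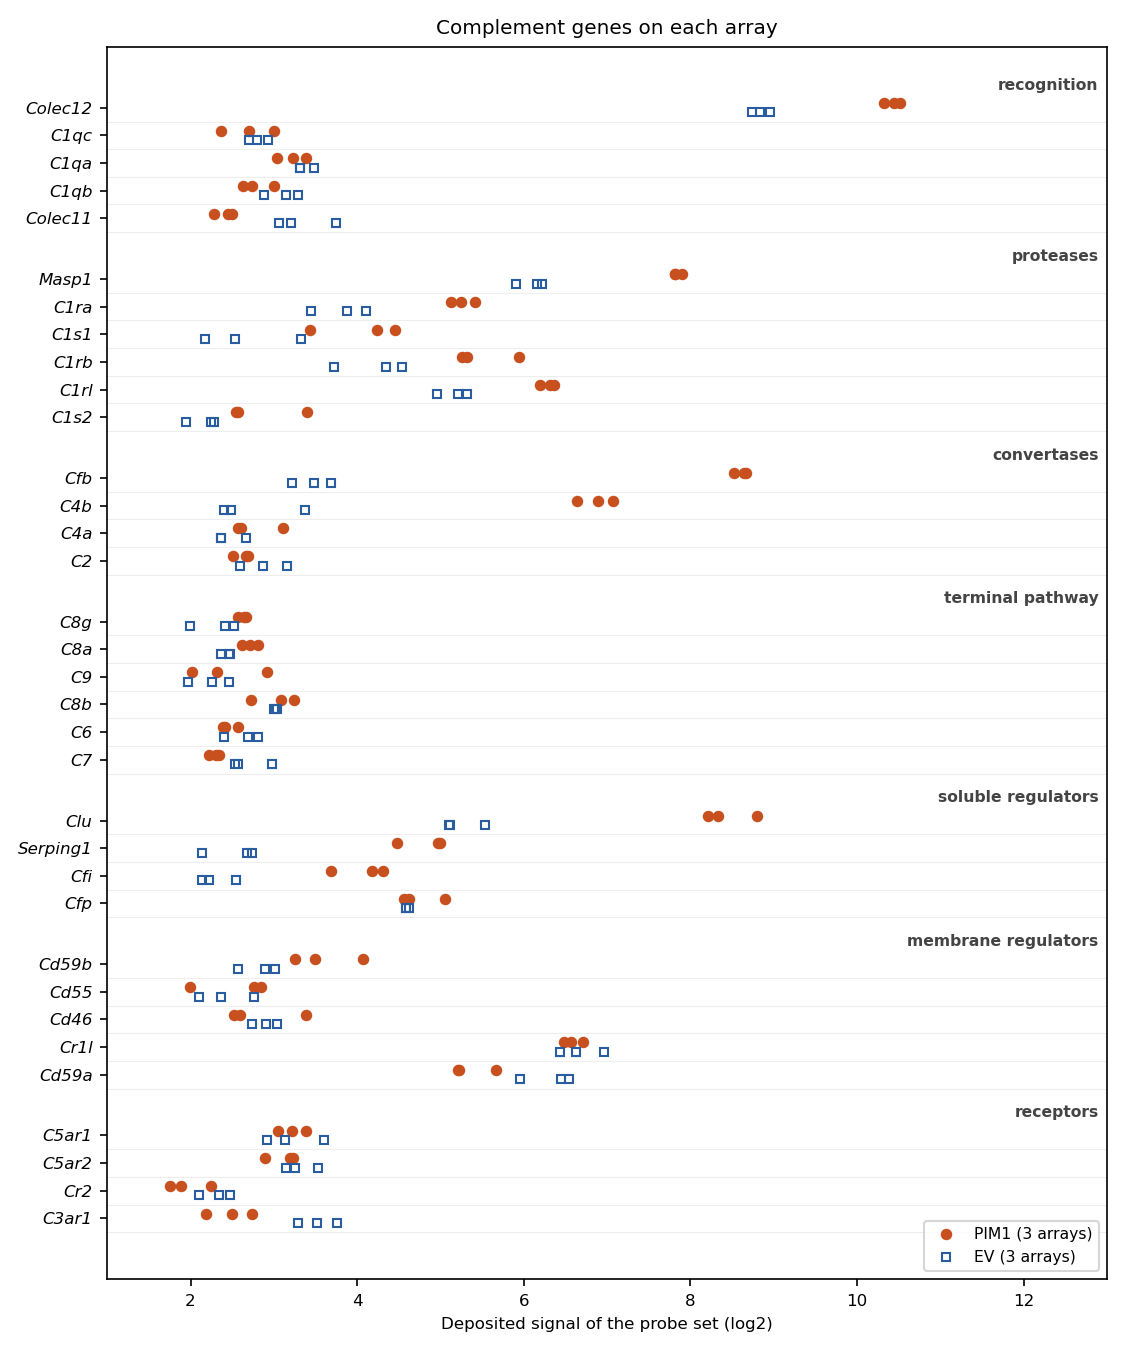
Deposited log2 signal of the 34 measured complement genes on each array, with genes grouped by their place in the cascade (filled circles, 3 PIM1 arrays; open squares, 3 EV arrays). The PIM1 arrays stand well to the right for Cfb, C4b, Clu, Serping1 and Cfi, overlap the EV arrays for C1q and C6, C8b and C9, and stand to the left for C3ar1, Colec11 and Cd59a.

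Pim1 read 7.11, 6.89 and 6.97 in PIM1 and 5.26, 6.25 and 5.23 in EV (difference 1.41, adjusted p = 0.00455), with no overlap between the groups. The deletions of Rb1 and Trp53 were not checked here, since the place of the Rb1 probes in the gene is not given and Trp53 had no probe set under the rule. Low signals limit these comparisons, since no detection call was given with the values. On all 6 arrays 19 of the 34 genes lay below the median of the genes tested, and 17 of the 19 genes that were not called were among them. Over all genes 59.6% of the calls were higher in PIM1. That share was 73.5% after centring each array on the median of all its probe sets and 47.0% after quantile normalization. Arrays from bulk cultures cannot tell a change in the number of cells of a type from a change in RNA per cell. Of 12 fibroblast markers 10 rose and 1 fell, where 16.1% of all genes tested rose and 10.9% fell. The summed linear signal of the 12 was 11859 to 12398 on the PIM1 arrays and 2788 to 2844 on the EV arrays. On all 6 arrays, EV included, 9 of the 12 lay above the array median and 3 below it. Of 9 measured prostate epithelial markers 1 rose and 3 fell, with sums of 154 to 162 in PIM1 and 686 to 723 in EV. Most of that gap came from the simple-epithelial keratin gene Krt18, which averaged 4.90 ± 0.12 in PIM1 and 9.14 ± 0.06 in EV (SD, n = 3 each), and without it the sums were 122 to 132 in PIM1 and 132 to 155 in EV. On all 6 arrays 4 of the 9 (Krt8, Krt18, Cdh1 and Hoxb13) lay above the array median and 4 (Epcam, Trp63, Krt14 and Krt15) below it, with Krt19 in between. Of 13 macrophage and leukocyte markers 1 (Cd14) rose and 1 (Csf1r) fell, with sums of 297 to 353 in PIM1 and 187 to 212 in EV. Without Cd14, the brightest of them, the order of the sums turned, to 111 to 114 in PIM1 and 149 to 161 in EV. On all 6 arrays 3 of the 13 (Cd14, Cd68 and Cx3cr1) lay above the array median and 8 below it, among them Ptprc, the pan-leukocyte marker, and Adgre1, a macrophage surface receptor gene. None of 10 endothelial markers was called by limma (1 passed an unadjusted p under 0.05, lower in PIM1), with sums of 67.7 to 76.3 in PIM1 and 72.6 to 79.1 in EV. The markers had no detection call either, so a low value among them cannot be told from background. These marker levels differ between the same arrays as every complement result, and their part in the results was not tested.

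Recognition molecules moved in both directions. C1qa, C1qb and C1qc encode the 3 chains of C1q, which starts the classical pathway on bound antibody and is made mainly by macrophages and dendritic cells. C1qa read 3.39, 3.23 and 3.04 in PIM1 and 3.49, 3.31 and 3.31 in EV, C1qb averaged 2.79 ± 0.19 against 3.11 ± 0.21 and C1qc 2.69 ± 0.32 against 2.81 ± 0.11 (SD, n = 3 each). The groups overlapped for all 3 chains, and none was called, with differences of -0.15 (95% interval -0.43 to 0.13), -0.32 (-0.65 to 0.01) and -0.12 (-0.50 to 0.26). All 3 lay below the array median on every array where a fall would be hard to see.

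The collectin genes were called in opposite directions. Colec12 encodes a membrane-bound scavenger receptor of the collectin family. Its signal was 10.32, 10.44 and 10.52 in PIM1 and 8.74, 8.83 and 8.95 in EV, a 3.00-fold rise (difference 1.59, standard error 0.107, adjusted p = 2.30e-05) with no overlap between the groups. Colec11 encodes a soluble collectin that binds sugars on microbes and carries MASP proteases. It read 2.50, 2.45 and 2.28 in PIM1 and 3.75, 3.06 and 3.20 in EV, so it fell by 0.93 (adjusted p = 0.00598). The groups did not overlap, but all 6 values lay below the array median.

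Most serine proteases that start the cascade rose. Of the 6 measured protease genes 5 rose and 0 fell, where 16.1% of all genes tested rose and 10.9% fell. The median difference of the 6 was 1.33. Masp1 encodes a protease of the lectin pathway. Its signal was 7.82, 7.82 and 7.90 in PIM1 and 5.90, 6.16 and 6.21 in EV, a 3.37-fold rise (difference 1.75, standard error 0.113, adjusted p = 1.80e-05). Both groups lay above the array median on every array.

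C1r and C1s are the proteases of the C1 complex, in which C1r cleaves itself and then C1s, and C1s cleaves C4 and C2. Mice have duplicated genes for each. The 5 measured genes of this family, C1rl, C1ra, C1s1, C1rb and C1s2, stand next to each other on chromosome 6. The RefSeq windows around their annotated starts (250 bases before the start and 50 after it, build GRCm38.p6) are shown because 4 of the 5 genes of the cluster were called higher. Capitals mark matches to the C/EBP motif TTNNGNAA or the STAT motif TTCNNNGAA on either strand. The windows are C1rl at chr6:124492863-124493162 on the plus strand, C1ra at chr6:124512371-124512670 on the plus strand, C1s1 at chr6:124542310-124542609 on the minus strand (the more upstream of its 2 annotated starts), C1rb at chr6:124570180-124570479 on the plus strand and C1s2 at chr6:124636036-124636335 on the minus strand, each given 5′ to 3′ in the direction of the gene.
C1rl: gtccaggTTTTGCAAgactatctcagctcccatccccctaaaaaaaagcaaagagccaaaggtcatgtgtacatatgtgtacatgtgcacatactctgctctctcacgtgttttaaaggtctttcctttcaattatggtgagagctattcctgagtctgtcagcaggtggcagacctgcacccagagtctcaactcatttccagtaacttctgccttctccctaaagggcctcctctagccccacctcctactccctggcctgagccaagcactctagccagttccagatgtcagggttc
C1ra: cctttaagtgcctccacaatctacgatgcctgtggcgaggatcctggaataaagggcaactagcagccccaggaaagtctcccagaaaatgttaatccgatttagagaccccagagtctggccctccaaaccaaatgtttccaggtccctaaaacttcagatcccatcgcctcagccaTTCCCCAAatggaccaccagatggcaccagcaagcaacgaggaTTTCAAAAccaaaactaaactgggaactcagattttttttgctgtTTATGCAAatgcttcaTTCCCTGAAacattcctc
C1s1: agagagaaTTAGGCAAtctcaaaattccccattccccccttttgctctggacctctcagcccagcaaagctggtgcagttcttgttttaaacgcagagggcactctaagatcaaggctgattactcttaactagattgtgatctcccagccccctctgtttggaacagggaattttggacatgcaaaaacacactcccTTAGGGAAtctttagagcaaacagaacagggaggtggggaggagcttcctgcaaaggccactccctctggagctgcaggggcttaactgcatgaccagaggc
C1rb: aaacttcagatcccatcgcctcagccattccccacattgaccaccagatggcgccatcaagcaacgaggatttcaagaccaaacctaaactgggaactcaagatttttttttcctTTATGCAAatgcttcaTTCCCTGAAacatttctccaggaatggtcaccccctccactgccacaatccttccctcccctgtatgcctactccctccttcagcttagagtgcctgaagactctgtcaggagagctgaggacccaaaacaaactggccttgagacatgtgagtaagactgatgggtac
C1s2: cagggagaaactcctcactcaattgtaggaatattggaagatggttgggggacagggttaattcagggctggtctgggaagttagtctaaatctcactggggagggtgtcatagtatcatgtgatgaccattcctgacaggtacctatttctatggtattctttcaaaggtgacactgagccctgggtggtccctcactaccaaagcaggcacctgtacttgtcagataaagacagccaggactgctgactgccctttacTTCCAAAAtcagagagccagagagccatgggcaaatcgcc
The C/EBP letters occurred in the windows of all 5 genes, and in 40.7% of the 32851 windows of the RefSeq table. The STAT letters occurred in those of C1ra and C1rb, and in 8.30% of all windows. Matches to the NF-kappaB consensus (4.51% of all windows) and to the interferon-stimulated response element (3.44%) were not found in these 5 windows; matches were counted on both strands, and the matches marked here do not overlap each other. A match is a description of letters and not of a site. The C/EBP letters occurred for 13 of the 27 listed genes that had a window, the genes of this cluster among them. Of the 12 genes that rose 5 had a window, and Cfb, C4b, Clu, Serping1, Cfi, Masp1 and Colec12 had none. C1ra and C1rb share a stretch from -99 to 50 of the C1ra window and from -250 to -102 of the C1rb window, counted from each annotated start with no position 0. Over its 150 aligned columns 139 bases (92.7%) were identical, 9 differed and 2 were gaps. The STAT match and the C/EBP match just before it lie inside this stretch in both genes, after the annotated start of C1ra and before that of C1rb. The 2 other C/EBP matches of C1ra also lie in the stretch, and their letters are not matched in C1rb.

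C1ra read 5.13, 5.41 and 5.24 in PIM1 and 4.11, 3.88 and 3.45 in EV, a 2.73-fold rise (difference 1.45, standard error 0.173, adjusted p = 5.21e-04). C1rb read 5.94, 5.32 and 5.26 in PIM1 and 4.53, 4.35 and 3.73 in EV, a 2.47-fold rise (adjusted p = 0.00554). C1rl, which encodes a C1r-like protease, read 6.19, 6.36 and 6.31 in PIM1 and 5.21, 5.32 and 4.95 in EV, a 2.19-fold rise (adjusted p = 3.18e-04). For these 3 genes the PIM1 arrays and the EV arrays did not overlap. C1ra and C1rb are close copies, and their probe sets can share signal, so their 2 rises may not be separate measurements.

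The C1s genes were dimmer and more variable. C1s1 read 4.24, 4.46 and 3.43 in PIM1 and 2.18, 2.54 and 3.33 in EV, a 2.57-fold rise (difference 1.36, standard error 0.337, adjusted p = 0.0191). The groups stood apart by the narrow gap between PIM1 replicate 3 and EV replicate 3. The call was lost without EV replicate 1 (adjusted p = 0.0556), EV replicate 2 (0.0503), PIM1 replicate 1 (0.0668) or PIM1 replicate 2 (0.0716), and adjusted p ranged from 0.00537 to 0.0716 over the alternatives. A second probe set of C1s1 read 3.74, 3.19 and 3.48 in PIM1 and 2.00, 2.43 and 2.84 in EV, a difference of 1.05 (adjusted p = 0.0289 over all probe sets). Its groups did not overlap either. C1s2 read 2.57, 2.54 and 3.40 in PIM1 and 2.28, 2.25 and 1.95 in EV, a difference of 0.68 (95% interval 0.15 to 1.21) that was not called (adjusted p = 0.0616). Its groups did not overlap, it lay below the array median throughout, and it passed under 4 alternatives, with adjusted p between 0.0377 and 0.149 over all of them.

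Genes beside the cluster differed less between the groups. Of the 6 measured genes beside the cluster, 3 on each side, 2 rose and 0 fell, where 16.1% of all genes tested rose and 10.9% fell. The 2 that rose were Pex5, a peroxisomal import receptor (0.58, adjusted p = 0.0228), and Lpcat3, a lysophospholipid acyltransferase (0.56, adjusted p = 0.00294). Differences among the 6 ran from -0.26 to 0.58, below every difference in the cluster, where they ran from 0.68 to 1.45. The plot of genes in chromosome order shows this cluster above the other loci.

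**Figure D2:**
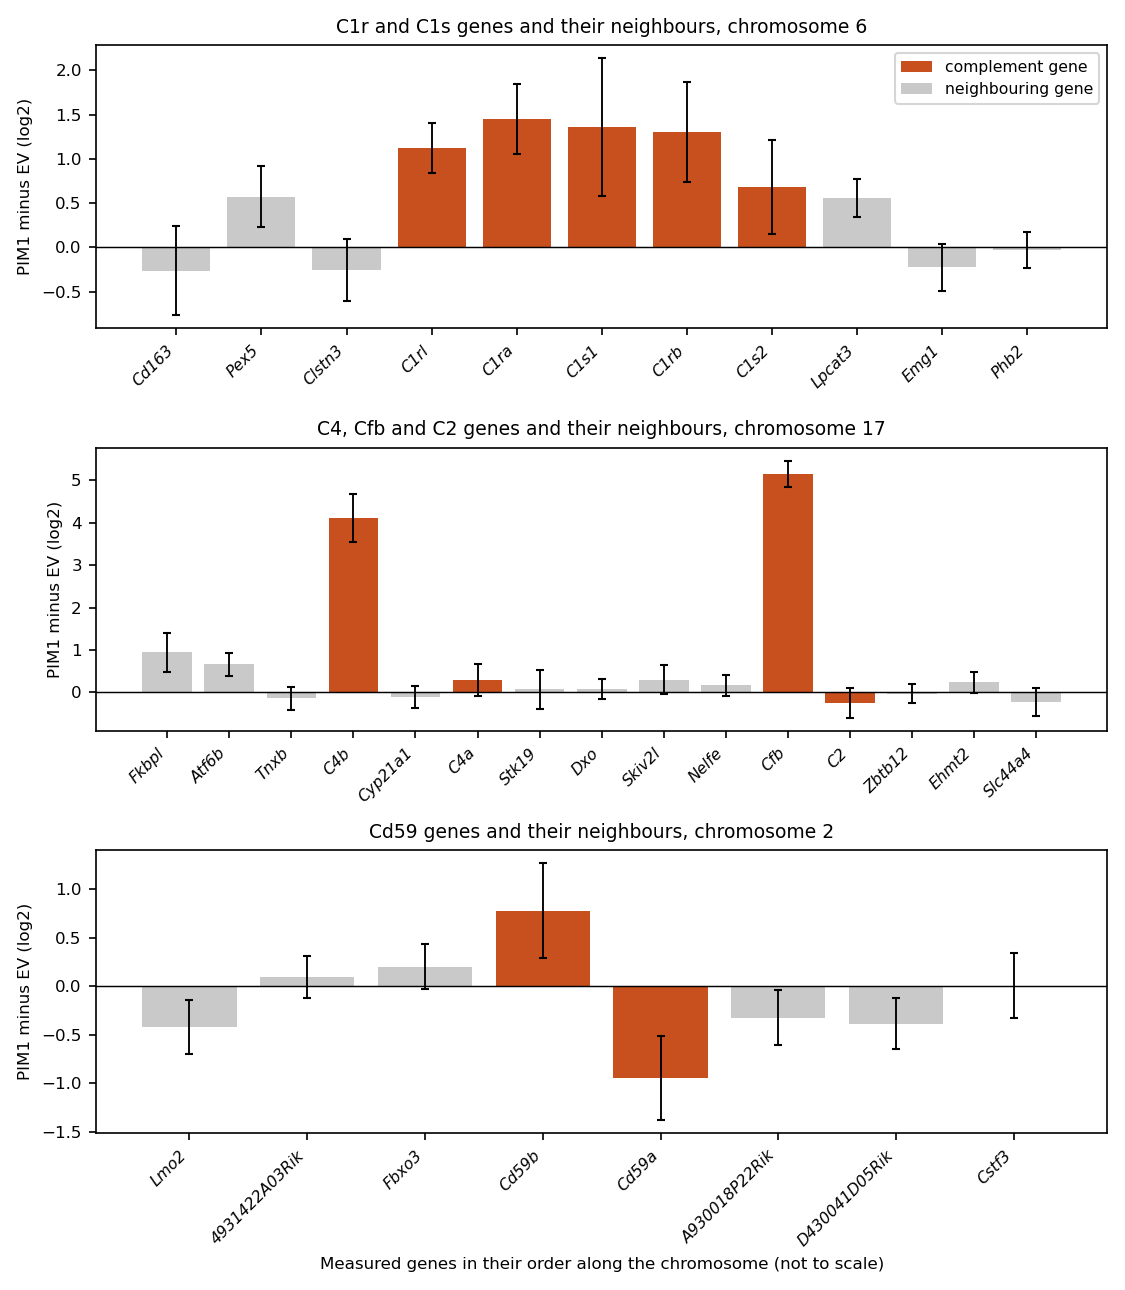
PIM1 minus EV in log2 signal with 95% intervals for measured genes in their order along chromosomes 6, 17 and 2, complement genes in orange and neighbours in grey; spacing is not to scale and each panel has its own axis. The 5 C1r and C1s genes stand between 0.68 and 1.45, Cfb and C4b stand at 5.15 and 4.11 beside C2 and C4a near 0, and Cd59b and Cd59a stand on opposite sides of 0.

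Among the convertase genes Cfb and C4b showed the largest rises of the 34 genes. Cfb encodes factor B, the catalytic subunit of the alternative pathway convertase. It read 8.52, 8.67 and 8.64 in PIM1 and 3.49, 3.69 and 3.21 in EV. The 35.4-fold difference (5.15, standard error 0.136, adjusted p = 2.59e-07) placed it at rank 13 of 22180 genes ordered by rise. C4b encodes complement C4, which forms the classical and lectin convertase with C2. It read 6.64, 7.08 and 6.89 in PIM1 and 3.37, 2.49 and 2.41 in EV, a 17.3-fold difference (4.11, standard error 0.25, adjusted p = 1.35e-05) at rank 40. Both genes lay below the array median on all 3 EV arrays and above it on all 3 PIM1 arrays, and no detection call tells signal from background at that EV level.

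C2 and C4a did not move with them. C2, the catalytic subunit that pairs with C4, read 2.67, 2.69 and 2.51 in PIM1 and 2.87, 3.16 and 2.59 in EV, a difference of -0.25 (95% interval -0.60 to 0.10, adjusted p = 0.263). C4a, the copy of C4 known in mice as Slp and classed in RefSeq as a transcribed pseudogene, read 2.61, 3.10 and 2.56 in PIM1 and 2.37, 2.67 and 2.37 in EV, a difference of 0.29 (-0.09 to 0.67, adjusted p = 0.241). All values of C2 and C4a lay below the array median, and the groups overlapped. These 4 genes lie close together in the class III part of the major histocompatibility complex on chromosome 17, with C2 next to Cfb. The difference of Cfb exceeded that of C2 by 5.40, and that of C4b exceeded that of C4a by 3.82. In an exact two-sided permutation test over arrays each of these contrasts, and that of the Cd59 genes below, gave p = 0.1 (also after adjustment over the 3 pairs, which were picked after their values were seen), the smallest that 3 against 3 arrays allow. Of the 11 other measured genes in and beside this locus 2 rose, Fkbpl (0.95, adjusted p = 0.00905) and the endoplasmic reticulum stress sensor gene Atf6b (0.66, adjusted p = 0.00369), and 0 fell. Over all genes tested 16.1% rose and 10.9% fell. C4a and C4b are close copies whose probe sets can share signal.

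No gene of the terminal pathway was called. C6, C7, C8a, C8b, C8g and C9 encode subunits of the membrane attack complex. Of these 6 genes limma called 0 in either direction, where 27.0% of all genes tested were called. At an unadjusted p under 0.05 there was 1 higher (C8a) and 1 lower (C7). C7 read 2.34, 2.31 and 2.22 in PIM1 and 2.57, 2.97 and 2.53 in EV, a difference of -0.40 (adjusted p = 0.0619, and 0.0496 without EV replicate 3, within a range of 0.0496 to 0.172 over the alternatives). C8a read 2.81, 2.62 and 2.71 in PIM1 and 2.37, 2.46 and 2.48 in EV, a difference of 0.28 (adjusted p = 0.0736). C8a passed after quantile normalization, cyclic loess or centring on all probe sets (adjusted p = 0.0182, 0.0183 and 0.0267, within a range of 0.0182 to 0.226). The groups did not overlap for either gene, nor for C8g, which averaged 2.62 ± 0.05 in PIM1 and 2.31 ± 0.28 in EV. Over all genes tested the groups did not overlap for 43.2%. C6 averaged 2.46 ± 0.09 in PIM1 and 2.64 ± 0.22 in EV, C8b 3.02 ± 0.26 against 3.02 ± 0.02, and C9 2.42 ± 0.46 against 2.23 ± 0.25 (SD, n = 3 each). All 6 genes lay below the array median on every array, and their 95% intervals ran from -0.71 at the lowest to 0.72 at the highest.

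**Figure D3:**
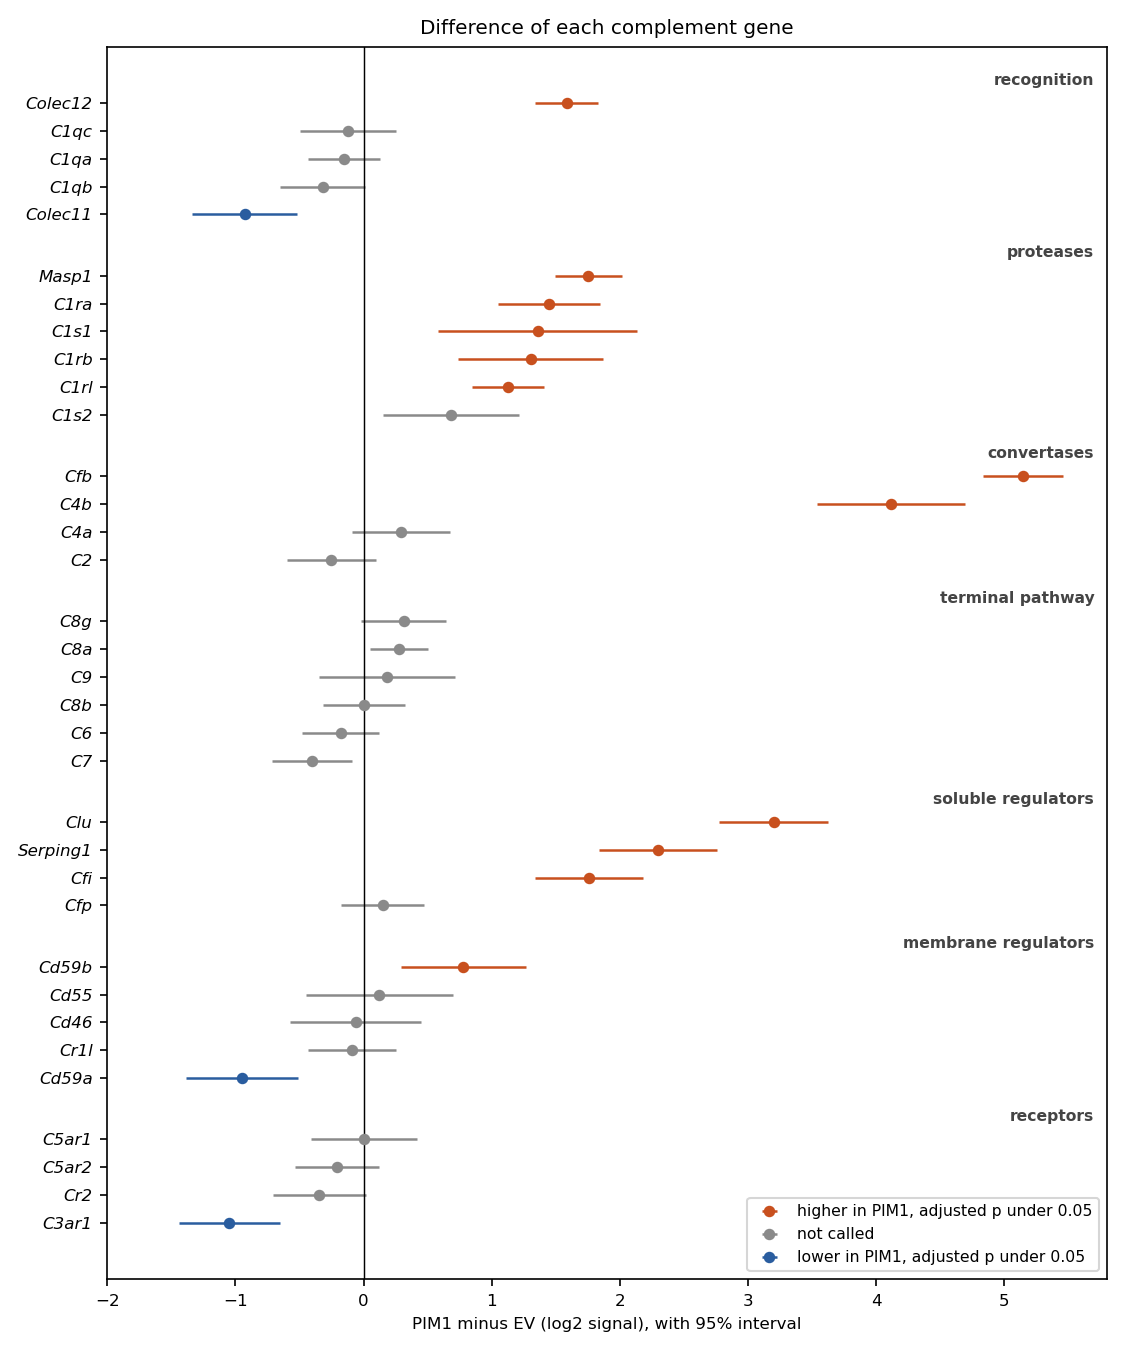
PIM1 minus EV in log2 signal for the 34 measured complement genes, with 95% intervals from the limma fit and genes grouped by their place in the cascade (orange, higher in PIM1; blue, lower in PIM1; grey, not called). The protease and soluble regulator groups lie mostly right of 0, and all 6 intervals of the terminal pathway lie between -0.71 and 0.72.

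Most soluble regulators rose. Of the 4 measured 3 rose and 0 fell and Cfp was not called, where 16.1% of all genes tested rose. As for every other step, the fibroblast marker sums differed on the same arrays (11859 to 12398 in PIM1, 2788 to 2844 in EV). Their part in these rises was not tested. Clu encodes clusterin, an extracellular chaperone that binds terminal complement complexes and keeps them out of membranes. It read 8.33, 8.80 and 8.21 in PIM1 and 5.10, 5.12 and 5.53 in EV, a 9.18-fold rise (difference 3.20, standard error 0.184, adjusted p = 9.75e-06). Both groups lay above the array median on every array, and they did not overlap.

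Serping1 encodes the C1 inhibitor, a serpin that inactivates C1r, C1s and the MASPs. It read 4.48, 4.98 and 4.99 in PIM1 and 2.14, 2.74 and 2.67 in EV, a 4.91-fold rise (difference 2.30, standard error 0.2, adjusted p = 9.36e-05). Thus the gene of the inhibitor and those of its target proteases C1ra, C1rb, C1s1 and Masp1 were all higher in PIM1 cells. Cfi encodes factor I, a protease that cleaves C3b and C4b with the help of cofactors. It read 3.69, 4.18 and 4.31 in PIM1 and 2.54, 2.14 and 2.22 in EV, a 3.38-fold rise (difference 1.76, standard error 0.182, adjusted p = 2.47e-04). For both genes the groups did not overlap and all EV values lay below the array median, where no detection call tells signal from background. Serping1 lay above the median on all 3 PIM1 arrays and Cfi on 2 of them. Cfp encodes properdin, which stabilises the alternative convertase. It read 4.62, 4.56 and 5.05 in PIM1 and 4.62, 4.59 and 4.58 in EV, a difference of 0.15 (95% interval -0.17 to 0.47, adjusted p = 0.477), and the groups overlapped at a signal above the array median.

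Membrane regulators did not move as a group. Of the 5 measured 1 rose and 1 fell, where 16.1% of all genes tested rose and 10.9% fell. The 2 called genes both encode CD59, the membrane protein that blocks assembly of the attack complex. Cd59a, the widely expressed mouse copy, read 5.21, 5.22 and 5.66 in PIM1 and 6.55, 6.44 and 5.95 in EV, so it fell by 0.95 (standard error 0.188, adjusted p = 0.00708). Its groups did not overlap, and it lay above the array median throughout. Cd59b, known from mouse testis, read 3.49, 3.26 and 4.07 in PIM1 and 3.02, 2.56 and 2.89 in EV, a 1.72-fold rise at low signal (difference 0.78, adjusted p = 0.0283). That call did not hold without EV replicate 2 (adjusted p = 0.0780), EV replicate 3 (0.0512), PIM1 replicate 1 (0.0593) or PIM1 replicate 3 (0.0615), nor with adjustment over all probe sets (0.0661), and adjusted p ranged from 0.0142 to 0.0780 over the alternatives. The 2 genes are neighbours on chromosome 2, and their differences lay 1.73 apart. As close copies they can share probe signal. Of the 6 measured genes beside them 0 rose and 2 fell, against 10.9% of all genes tested that fell. Those were Lmo2 (-0.42, adjusted p = 0.0365) and D430041D05Rik (-0.39, adjusted p = 0.0391).

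The other membrane regulators were not called. Cr1l encodes Crry, the rodent membrane inhibitor of C3 and C4 activation. It read 6.71, 6.48 and 6.57 in PIM1 and 6.97, 6.63 and 6.43 in EV, all above the array median, with a difference of -0.09 (95% interval -0.43 to 0.25, adjusted p = 0.701). Its interval leaves out a change of 2-fold in either direction. Cd55 encodes decay-accelerating factor, which dissociates convertases, and averaged 2.53 ± 0.47 in PIM1 and 2.41 ± 0.33 in EV (SD, n = 3 each; difference 0.12, -0.45 to 0.69). Cd46 encodes a cofactor for factor I that mice express mainly in testis, and averaged 2.83 ± 0.48 in PIM1 and 2.89 ± 0.15 in EV (difference -0.06, -0.57 to 0.45). For Cd55 and Cd46 the groups overlapped below the array median.

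Receptors were low in both groups, and 1 of 4 was called, where 27.0% of all genes tested were called. C3ar1 encodes the receptor for the fragment C3a, found mostly on myeloid cells. It read 2.19, 2.74 and 2.50 in PIM1 and 3.29, 3.76 and 3.52 in EV, a 2.07-fold fall (difference -1.05, standard error 0.171, adjusted p = 0.00269) with no overlap between the groups. Of the 13 macrophage and leukocyte markers on these arrays Csf1r fell (-1.35, adjusted p = 2.10e-04), Cd14 rose (2.20, adjusted p = 6.85e-05) and 11 were not called, with a median difference of -0.20 over the 13, and the part of myeloid cells in the C3ar1 result was not tested. C5ar1, the main receptor for C5a, read 3.05, 3.39 and 3.22 in PIM1 and 3.60, 3.13 and 2.92 in EV, a difference of 0.00050 (95% interval -0.41 to 0.42). C5ar2, the second C5a receptor, averaged 3.11 ± 0.19 in PIM1 and 3.31 ± 0.20 in EV, and Cr2, which in mice encodes complement receptors 1 and 2 of B cells and follicular dendritic cells, averaged 1.96 ± 0.26 against 2.31 ± 0.19 (SD, n = 3 each). Their differences were -0.21 (adjusted p = 0.321) and -0.34 (adjusted p = 0.147). The groups overlapped for these 3 genes, and all 4 receptors lay below the array median on every array.

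The remaining genes of the pathway showed few changes. Of 26 further complement genes 24 were measured, and 1 rose, 0 fell and 23 were not called. The share that rose was 4.17%, against 16.1% of all genes tested, and 10.9% of all genes fell. The 1 that rose was Ptx3, a soluble pattern-recognition protein that binds C1q, at 8.66, 8.43 and 8.94 in PIM1 and 3.52, 3.15 and 3.41 in EV (difference 5.31, standard error 0.156, adjusted p = 4.22e-07). By the same fit 0 of the others had an unadjusted p under 0.05, and their differences ran from -0.28 to 0.09, with 21 of the 23 below the array median on all 6 arrays. Hc, the mouse gene of C5, read 2.40, 2.44 and 2.29 in PIM1 and 2.37, 2.21 and 2.60 in EV, a difference of -0.02 (95% interval -0.30 to 0.26). C1qbp, a mitochondrial protein that can bind C1q, was the one gene of the 23 above the array median on all 6 arrays, at 9.03, 8.92 and 8.68 in PIM1 and 9.09, 8.94 and 9.16 in EV (difference -0.18, -0.47 to 0.10). Among the others were the mannose-binding lectin genes Mbl1 and Mbl2, the ficolin genes Fcna and Fcnb, the C4 binding protein gene C4bp and the complement receptor 3 genes Itgam and Itgb2.

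**Figure D4:**
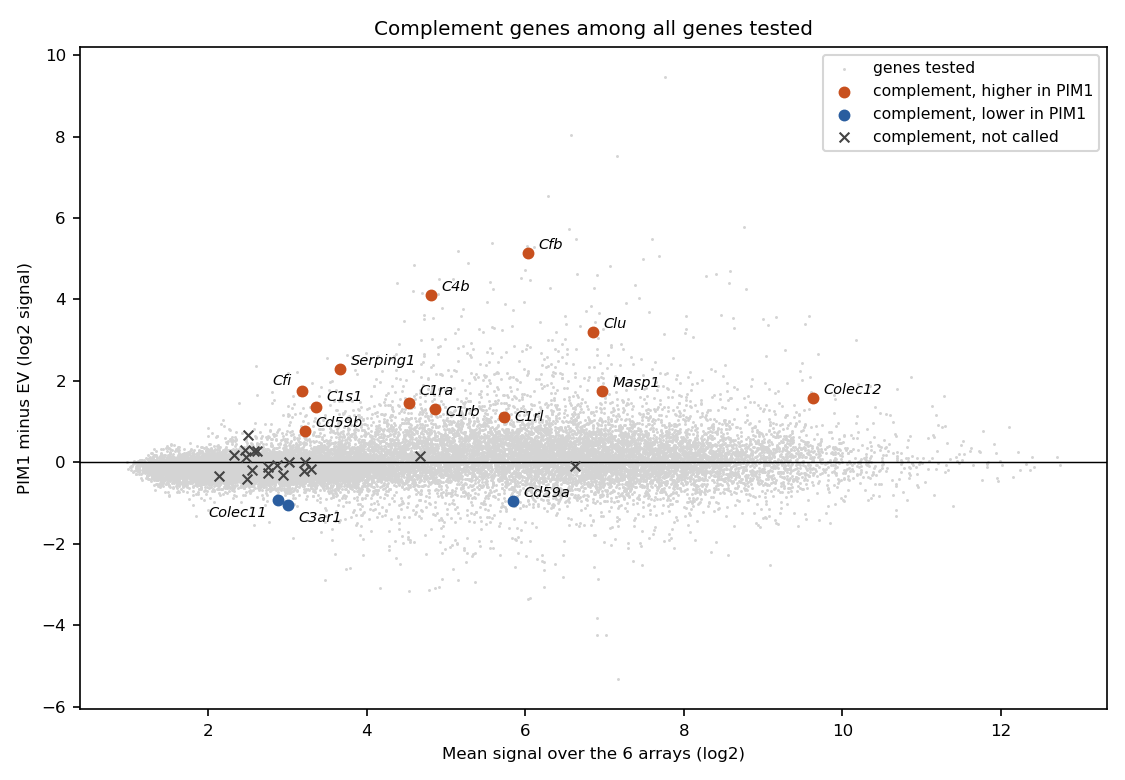
PIM1 minus EV in log2 signal against the mean signal over the 6 arrays for 22180 genes (grey), with the 34 complement genes marked (orange, higher in PIM1; blue, lower in PIM1; crosses, not called). Cfb, C4b and Clu stand far above the bulk of the genes at 5.15, 4.11 and 3.20, and 17 of the 19 crosses lie at low signal.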

How the data were processed

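RNA of 3 PIM1 and 3 EV samples was measured on whole-transcript arrays. The authors deposited 1 value per probe set and array, taken here as log2 signal from its range. The log base, background correction, summarization and normalization could not be told (not given in the sources used here), and the submitters' processing notes name Affymetrix Expression Console. The deposited values were not scaled again. Gene symbols came from the platform annotation: of 41345 probe sets 23521 had 1 symbol, 1814 several and 16010 none. Groups were compared in R 4.3.3 with limma 3.58.1 (lmFit, eBayes; a two-sided test with group as its single term) over 22180 genes, with no filter on low signal. The scripts were tested on simulated data. The number of arrays limits the precision. Every measured member is named. Members and lists were chosen with earlier results of these data known. The neighbouring genes of 3 loci, those loci and the gene pairs were chosen after values were seen. Neighbours were also read at the C1q, Cd46 to Cr2 and C5a receptor loci, where no member was called, and are not shown. Marker sums without the brightest marker of a list were added after seeing the data. RefSeq (GRCm38.p6) gave promoter windows, matched by symbol for 27 of the 38 genes, and gene order; Biopython 1.88 aligned the windows.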

Additional observations from a re-analysis of the deposited data

How the results depend on the processing

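The settings tried were quantile normalization, cyclic loess, a robust variance with a trend, median centring, the brighter 11090 genes alone, the mean of a gene's probe sets, all probe sets, a replicate block and leaving out each array. Centring on the median of all probe sets was added after seeing the data. Of 487 member differences recomputed under these 15 settings, 470 stayed on their side of the threshold, 9 lost a call (C1s1 and Cd59b), 8 gained one (C1s2, C7 and C8a) and 0 called differences changed sign. Calls held under every setting that tested the gene for 13 of the 15 called members. Among the brighter genes alone 2 of the 4 regulators kept by that filter were called, against 5 of 9, and 0 receptors were tested, against 1 call of 4. Leaving out 1 array gave 8 to 10 called components, 4 to 5 regulators, 1 receptor and 1 further complement gene, and 4167 to 5369 calls over all genes. With the replicate block 5321 genes were called, against 5995, and 9 components, 5 regulators, 1 receptor and 1 further gene, as without it. Same-numbered arrays correlated at 0.0558, -0.0314 and 0.00875 in their deviations from the group means, so they were taken to share only a number.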

Other observations

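A probe set annotated to both Masp2, a lectin pathway protease, and Tardbp entered no comparison. It read 3.94, 3.57 and 3.47 in PIM1 and 3.62, 3.76 and 3.77 in EV, and the groups overlapped.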
